A study of Mus musculus with 2 samples.

Results

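Allele-resolved reads were examined for 7 named genes in the nuclei of the female mouse heart. They were 5 X-linked genes, Ddx3x, Eif2s3x, Utp14a, 9530027J09Rik and Pbdc1, and the autosomal genes Eif2s1 and Eif2s2, whose products form the eIF2 complex together with that of Eif2s3x. The genes were chosen by name, and all 7 were found in both libraries among the 25235 genes listed in either. Nuclei came from the hearts of F1 hybrid females with a C57BL/6J (BL6) mother and a CAST/EiJ (CAST) father, and the genotype label of both samples was C57BL/6JxCAST/EiJ. The groups were 1 adult heart (9 weeks) and 1 aged heart (78 weeks), untreated. The label for the parents names a cross with a mother carrying the ∆Xist allele, whereas the study's methods describe BL6 × CAST females without it for the nuclei, so the Xist status of the pups rests on those methods. Only nuclei classed by the authors from their chromosome-wide X-linked reads as having a BL6 active X (Xa) were pooled. BL6 reads of an X-linked gene were therefore taken as reads of the Xa, and CAST reads as reads of the inactive X (Xi). The nuclei were pooled from aligned reads, whereas the methods describe removal of ambient RNA (RNA from outside the nucleus) for count matrices. The paper reports that the BL6 X was preferentially inactivated in both hearts, so ambient RNA may hold Xa reads from CAST. Its part in the CAST reads was not tested. A nucleus with much X-linked CAST RNA could not enter this pool, which limits it as a sample of all nuclei.

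In each XX cell, X inactivation silences most genes of one X chromosome, and genes that stay transcribed from the Xi are called escapees. eIF2 is a complex of 3 subunits, encoded by Eif2s1 (alpha), Eif2s2 (beta) and Eif2s3x (gamma), which brings the initiator tRNA to the small ribosomal subunit. Phosphorylation of its alpha subunit lowers general translation and turns on the integrated stress response. In mice, Eif2s3x and Ddx3x have copies on the Y chromosome and are known as genes that escape X inactivation in many tissues. Ddx3x encodes a DEAD-box RNA helicase that helps translation of mRNAs with structured leaders, and Utp14a encodes a nucleolar component of the small subunit processome, which matures the small ribosomal RNA. 9530027J09Rik is a long noncoding RNA gene on the opposite strand of Utp14a, and the function of Pbdc1 is little described.

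The promoters of 6 of the 7 genes were matched by symbol in RefSeq (GRCm38.p6, windows of 300 bases with 250 before and 50 after the start). They are shown because the CAST reads of an escapee depend on transcription from such a promoter on the Xi, and because they set the X-linked genes beside the autosomal eIF2 genes. The reference sequence is that of BL6, the Xa allele here. CAST variants were not applied, so motifs and CpG counts of the Xi copies may differ. Capitals mark matches, on either strand, to any of 3 motifs of factors that often bind promoters of housekeeping genes. These were the YY1 core CCATNTT (found in 16.1% of 32851 promoters of the same length), the ETS motif CCGGAAG (8.86%) and the NRF1 motif, which is GCGCA and GCGC around 1 free base (4.60%). No matches overlapped each other. The RefSeq start used for Ddx3x lies inside the gene interval of the deposited files.
Ddx3x promoter (chrX:13280772-13281071, plus strand): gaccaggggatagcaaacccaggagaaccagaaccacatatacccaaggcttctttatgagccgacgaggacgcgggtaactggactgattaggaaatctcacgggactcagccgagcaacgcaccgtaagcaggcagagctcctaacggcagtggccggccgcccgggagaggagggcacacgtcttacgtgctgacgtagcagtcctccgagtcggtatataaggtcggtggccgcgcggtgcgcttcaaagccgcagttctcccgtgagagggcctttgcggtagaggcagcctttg
Eif2s3x promoter (chrX:94212602-94212901, minus strand): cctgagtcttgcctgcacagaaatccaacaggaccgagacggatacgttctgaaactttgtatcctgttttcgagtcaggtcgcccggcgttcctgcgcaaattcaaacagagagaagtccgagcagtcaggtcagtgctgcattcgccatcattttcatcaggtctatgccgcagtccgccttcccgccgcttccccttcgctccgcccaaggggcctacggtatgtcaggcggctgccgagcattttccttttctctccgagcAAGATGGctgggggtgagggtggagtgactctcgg
Utp14a promoter (chrX:48256684-48256983, plus strand): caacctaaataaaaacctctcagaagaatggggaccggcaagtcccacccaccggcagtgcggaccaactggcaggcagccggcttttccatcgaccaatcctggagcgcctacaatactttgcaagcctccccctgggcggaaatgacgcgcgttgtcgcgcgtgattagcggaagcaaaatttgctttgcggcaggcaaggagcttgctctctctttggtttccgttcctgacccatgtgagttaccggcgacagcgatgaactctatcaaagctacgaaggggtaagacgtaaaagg
Pbdc1 promoter (chrX:105079506-105079805, plus strand): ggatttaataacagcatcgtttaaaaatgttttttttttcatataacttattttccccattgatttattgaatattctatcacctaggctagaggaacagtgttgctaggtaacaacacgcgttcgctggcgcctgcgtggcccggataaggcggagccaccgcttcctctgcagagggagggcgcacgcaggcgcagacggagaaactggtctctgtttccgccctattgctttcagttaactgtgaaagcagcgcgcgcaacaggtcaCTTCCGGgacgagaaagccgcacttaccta
Eif2s1 promoter (chr12:78861822-78862121, plus strand): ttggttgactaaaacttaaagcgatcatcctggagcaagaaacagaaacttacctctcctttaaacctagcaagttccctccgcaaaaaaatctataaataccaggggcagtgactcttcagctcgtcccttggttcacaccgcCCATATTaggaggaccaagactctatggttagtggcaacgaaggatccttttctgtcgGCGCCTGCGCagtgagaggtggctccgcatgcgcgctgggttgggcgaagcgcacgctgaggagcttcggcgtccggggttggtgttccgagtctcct
Eif2s2 promoter (chr2:154892857-154893156, minus strand): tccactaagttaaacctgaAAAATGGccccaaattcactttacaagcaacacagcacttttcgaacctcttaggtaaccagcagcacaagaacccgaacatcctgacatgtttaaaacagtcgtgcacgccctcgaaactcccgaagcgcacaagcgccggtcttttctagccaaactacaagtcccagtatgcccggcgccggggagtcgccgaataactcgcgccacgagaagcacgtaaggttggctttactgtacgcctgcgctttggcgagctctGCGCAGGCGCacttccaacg
The 6 windows held between 18 (Eif2s1) and 25 (Ddx3x) CpG dinucleotides, against a median of 7 over all promoters. The 4 X-linked windows held 20 to 25, and the autosomal windows of Eif2s1 and Eif2s2 held 18 and 24, so the ranges of X-linked and autosomal windows overlapped. A YY1 core began 16 bases from the start of Eif2s3x, within the first transcribed bases, and single matches lay upstream in Eif2s1 and Eif2s2. The ETS motif was found in Pbdc1, beginning 21 bases from the start. The NRF1 motif was found in Eif2s1 and Eif2s2. None of these letters was found in the windows of Ddx3x and Utp14a, which describes these windows only.

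The adult library held 9747535 and the aged library 5805807 reads that overlapped a SNP between the strains. Levels are given as reads per 1000000 SNP-overlapping reads (RPM), each with a 95% exact Poisson interval. The allelic ratio is the share of BL6 reads, given with an exact Clopper-Pearson interval. There was 1 library per age, so no test was possible, and all intervals cover counting error only. Over autosomal genes the median allelic ratio was 0.536 in adult and 0.537 in aged, and over informative X-linked genes it was 0.98 at both ages. Xist, the RNA that coats the Xi, was 95.8% CAST in adult and 96.9% CAST in aged, which places the Xi on the CAST chromosome. Xist also had 696 BL6 reads in adult and 327 in aged, and their source was not tested. CAST reads made up 1.48% of the reads of those X-linked genes whose allelic ratio was above 0.9 in adult and 1.69% in aged. These genes were kept for their low CAST share, so the level describes them only. Of 6 cardiomyocyte markers, all listed in each library, 4 were higher and 2 lower in aged. Their sum was 0.908 times as high (28010 and 25423 RPM). The lower sum rested on Ttn, at 11849 and 6872 RPM, while Ryr2, the marker of most reads, was at 12068 and 13855 RPM. Of 6 fibroblast markers 4 were higher and 2 (Col1a2 and Col3a1) lower. Their sum was 1.55 times as high (614 and 954 RPM), and 1.18 times without Dcn. All 6 endothelial markers were higher, with a sum 1.74 times as high (577 and 1003 RPM). Of 6 pericyte markers 4 were higher and 1 lower, with Kcnj8 at 0, and the sum was 1.81 times as high (118 and 214 RPM). All 5 smooth muscle markers were higher, with a sum 1.42 times as high and 3.00 times without Myocd, which held most of their reads. All 5 macrophage markers were higher, with a sum 1.62 times as high. Of 5 lymphocyte markers 2 were higher and 3 lower, with Cd3e at 0 in aged and a sum 0.865 times as high. In such pools, fewer cells of a type and less RNA per cell cannot be told apart. Over all nuclei of these hearts, of either Xa, the paper reports a smaller share of cardiomyocytes and a larger share of fibroblasts in aged.

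All 5 X-linked genes had an allelic ratio of 0.9 or lower at both ages, the cutoff below which the study calls a gene an escapee. The same was true of 9.46% of 391 informative X-linked genes in adult and of 12.2% of 344 in aged. The 5 genes were chosen as escapees of the same study, so this outcome and their high ranks by CAST share follow largely from that choice. Their CAST shares lay between 25.5% (Utp14a) and 37.5% (Pbdc1) in adult and between 15.4% (Utp14a) and 44.1% (Ddx3x) in aged. Their intervals lay above the pooled CAST share of the other X-linked genes, which was 2.75% in adult and 3.22% in aged.

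**Figure D1:**
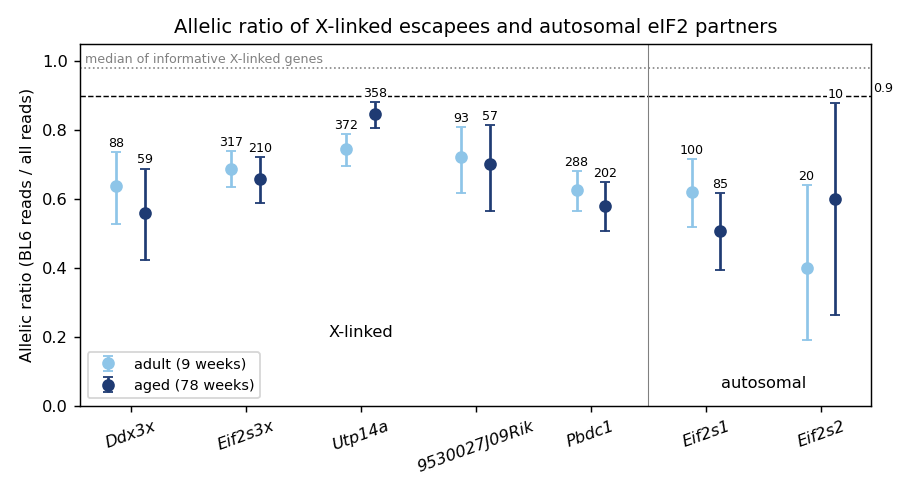
Allelic ratio (BL6 reads over all reads) of the 7 genes in the adult (light) and aged (dark) library, with 95% Clopper-Pearson intervals for counting error and the number of reads above each point. The dashed line marks an allelic ratio of 0.9 and the dotted line the median of the informative X-linked genes. All 5 X-linked genes lie below 0.9 at both ages, and Utp14a alone among them has a higher allelic ratio in aged with separate intervals.

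Ddx3x (Entrez 13205) lies on the plus strand at chrX:13280496-13293988 in GRCm38. It had 56 BL6 and 32 CAST reads in adult and 33 BL6 and 26 CAST reads in aged. The allelic ratio was 0.636 (0.527 to 0.736) in adult and 0.559 (0.424 to 0.688) in aged, so the CAST share was 36.4% and 44.1%. The adult allelic ratio was 0.0770 above the aged one, with an interval of the difference from -0.0813 to 0.234. The intervals of both ages overlapped widely, and a change with age was not detectable at this depth. Ranked by CAST share, Ddx3x was 5th of 391 informative X-linked genes in adult and 5th of 344 in aged.

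Eif2s3x (Entrez 26905) lies on the minus strand at chrX:94188709-94212651. It had 218 BL6 and 99 CAST reads in adult and 138 BL6 and 72 CAST reads in aged. The allelic ratio was 0.688 (0.634 to 0.738) in adult and 0.657 (0.589 to 0.721) in aged. The difference of 0.0306 (-0.0502 to 0.113) lay within counting error. The gene was 8th by CAST share among X-linked genes in adult and 9th in aged. Eif1ax, an X-linked gene for another factor that acts with eIF2 at the start codon, gave a contrast, with 2 CAST reads of 147 in adult (1.36%) and 2 of 112 in aged (1.79%). The CAST share of Eif2s3x was 31.2% (26.2 to 36.6) and 34.3% (27.9 to 41.1), with intervals wholly above those of Eif1ax, which reached up to 4.83% and 6.30%.

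Pbdc1 (Entrez 67683) lies on the plus strand at chrX:105079756-105117094. It had 180 BL6 and 108 CAST reads in adult and 117 BL6 and 85 CAST reads in aged. The allelic ratio was 0.625 (0.566 to 0.681) in adult and 0.579 (0.508 to 0.648) in aged, a difference of 0.0458 (-0.0415 to 0.133). The CAST share of 37.5% in adult and 42.1% in aged placed it 4th and 6th among informative X-linked genes. None of Ddx3x, Eif2s3x, Pbdc1 and 9530027J09Rik had an allelic ratio lower by 0.1 or more in aged, as had 3.25% of 338 X-linked genes, or an aged interval wholly below the adult one, as had 5.62%.

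Utp14a (Entrez 72554) lies on the plus strand at chrX:48256934-48282450. It had 277 BL6 and 95 CAST reads in adult and 303 BL6 and 55 CAST reads in aged. The allelic ratio was 0.745 (0.697 to 0.788) in adult and 0.846 (0.805 to 0.882) in aged, with intervals that did not overlap. The difference, adult minus aged, was -0.102 (-0.159 to -0.0433). The CAST share of Utp14a was thus lower in the aged than in the adult library, the opposite direction to Ddx3x, Eif2s3x, Pbdc1 and 9530027J09Rik, whose own differences lay within counting error. It was 1 of 5 X-linked genes of the set with an aged interval wholly above the adult one, as were 1.78% of 338 X-linked genes, and 1 of 5 with an allelic ratio higher by 0.1 or more, as were 2.07%. By the size of its gain in allelic ratio it was 6th of those 338. Its place by CAST share went from 12th of 391 to 26th of 344.

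9530027J09Rik (Entrez 100500713) lies on the minus strand at chrX:48276792-48285426. It shares 5659 bp with Utp14a, which is 65.5% of its own span and 22.2% of that of Utp14a. Whether strand was used in counting is not stated, so reads in the shared stretch may stand in both genes. It had 67 BL6 and 26 CAST reads in adult and 40 BL6 and 17 CAST reads in aged. The allelic ratio was 0.720 (0.618 to 0.809) in adult and 0.702 (0.566 to 0.816) in aged, a difference of 0.0187 (-0.124 to 0.171). With all reads of 9530027J09Rik taken from those of Utp14a, an alternative chosen after the data were seen, the allelic ratio of Utp14a was 0.753 (0.698 to 0.802) in adult and 0.874 (0.831 to 0.909) in aged. The intervals of Utp14a were then still separate, on the same side.

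Among the 5 X-linked genes the order of CAST shares in adult was Pbdc1, Ddx3x, Eif2s3x, 9530027J09Rik and Utp14a. In aged, Ddx3x stood before Pbdc1, and the rest of the order was as in adult. In both libraries the intervals of each pair of neighbours in the order overlapped. Pooled over the 5 genes, 360 of 1158 reads were CAST in adult, or 31.1% (28.4 to 33.8), and 255 of 886 in aged, or 28.8% (25.8 to 31.9). The direction of that small difference rested on Utp14a, without which the pooled share was 33.7% in adult and 37.9% in aged. The 4 protein-coding X-linked genes gave 4.52% (4.06 to 5.02) of all X-linked CAST reads outside Xist and Tsix in adult and 4.84% (4.26 to 5.48) in aged. They gave 0.415% and 0.570% of all X-linked reads, BL6 and CAST together.

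The reads of each allele, scaled to RPM, show which allele differed between the ages. For Ddx3x the BL6 level was 5.75 RPM in adult and 5.68 RPM in aged, and the CAST level was 3.28 and 4.48 RPM. The aged to adult ratio was 0.989 (0.623 to 1.55) for BL6 and 1.36 (0.781 to 2.36) for CAST, so neither differed beyond counting error. For Eif2s3x the BL6 level was 22.4 and 23.8 RPM and the CAST level 10.2 and 12.4 RPM. The ratios were 1.06 (0.852 to 1.32) and 1.22 (0.889 to 1.67). For Pbdc1 the BL6 level was 18.5 and 20.2 RPM and the CAST level 11.1 and 14.6 RPM, with ratios of 1.09 (0.857 to 1.38) and 1.32 (0.983 to 1.77). In Ddx3x, Eif2s3x and Pbdc1 the CAST ratio was the larger in value, and its interval contained 1 in each.

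Utp14a differed from these in the other allele. Its BL6 level was 28.4 RPM in adult and 52.2 RPM in aged, a ratio of 1.84 (1.56 to 2.17), whereas its CAST level was 9.75 and 9.47 RPM, a ratio of 0.972 (0.684 to 1.37). The higher allelic ratio in aged thus came with more scaled BL6 reads and about the same number of scaled CAST reads. A BL6 ratio at least as large was found in 8.97% of the 379 X-linked genes with 40 or more reads in all. For 9530027J09Rik the BL6 level was 6.87 and 6.89 RPM and the CAST level 2.67 and 2.93 RPM, with ratios of 1.00 (0.660 to 1.505) and 1.10 (0.559 to 2.10). The antisense gene, whose span is mostly shared with Utp14a, did not show the higher BL6 level.

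**Figure D2:**
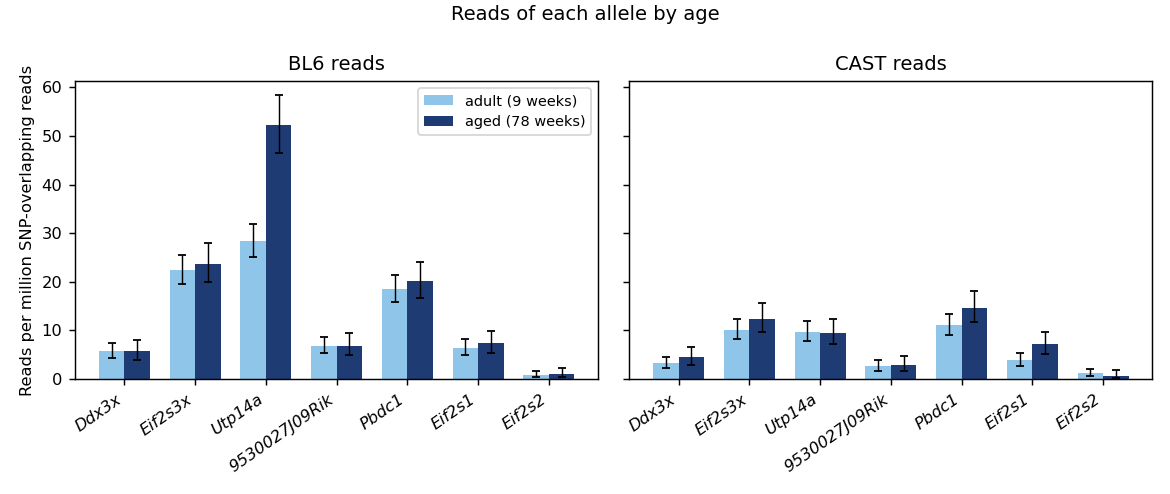
BL6 reads (left) and CAST reads (right) of each gene in RPM, in the adult (light) and aged (dark) library, with 95% exact Poisson intervals for counting error. The BL6 bar of Utp14a stands at 28.4 in adult and 52.2 in aged, while its CAST bars are 9.75 and 9.47.

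Over both alleles, the median gene with 40 or more reads in all (n = 13895) had an aged to adult ratio of 1.13, and the median X-linked gene 1.01 (n = 379). Of the 6 genes of the set with enough reads, 1, Utp14a, was 1.5-fold or more higher in aged, against 27.1% of all genes and 16.9% of X-linked genes, and none was 1.5-fold or more lower, against 15.1% of all genes. The total ratio of Utp14a was 1.62 (1.39 to 1.87), from 38.2 to 61.7 RPM. Set against the median gene in place of the library total it was 1.42, below 1.5-fold. By library total, Eif2s1 followed with 1.43 (1.06 to 1.92). Ddx3x had 1.13 (0.795 to 1.58), Eif2s3x 1.11 (0.9297 to 1.33), Pbdc1 1.18 (0.979 to 1.41) and 9530027J09Rik 1.03 (0.727 to 1.45). The totals of these 4 genes lay close to the median gene, and all their intervals contained 1. The sums of the endothelial, fibroblast, pericyte and macrophage markers were also higher in the aged library, by 1.55 to 1.81 times (fibroblast 1.18 without Dcn), and their part in the level of Utp14a was not tested.

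**Figure D3:**
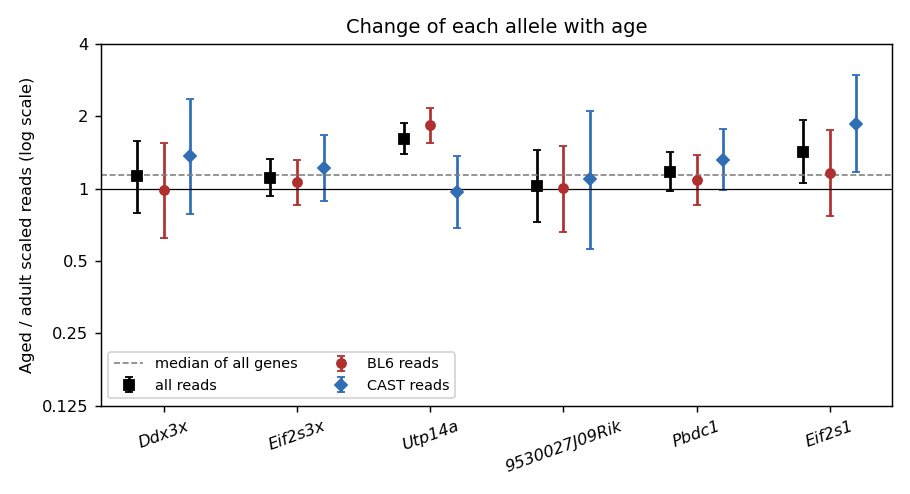
Aged to adult ratio of scaled reads, on a log axis, for all reads (squares), BL6 reads (circles) and CAST reads (diamonds) of the 6 genes with 40 or more reads in all, with 95% intervals for counting error. The dashed line is the median of all genes, 1.13. The BL6 ratio of Utp14a is 1.84 and its CAST ratio 0.972, while in Eif2s1 the CAST ratio is 1.86 and the BL6 ratio 1.16.

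Eif2s1 (Entrez 13665), the gene of the alpha subunit, lies on the plus strand at chr12:78862072-78887010. It had 62 BL6 and 38 CAST reads in adult and 43 BL6 and 42 CAST reads in aged. The allelic ratio was 0.620 (0.517 to 0.715) in adult and 0.506 (0.395 to 0.616) in aged, a difference of 0.114 (-0.0285 to 0.251). Both intervals contained the autosomal median, and differences of 0.1 or more towards CAST were found in 13.8% of 12390 autosomal genes, and towards BL6 in 14.2%. The BL6 level was 6.36 and 7.41 RPM and the CAST level 3.90 and 7.23 RPM. The CAST ratio of 1.86 (1.17 to 2.96) lay above 1, and the BL6 ratio of 1.16 (0.770 to 1.75) did not differ from 1 beyond counting error. On this autosomal gene the adult allelic ratio stood beside that of Pbdc1 (0.625) and Ddx3x (0.636), so an allelic ratio of this size was also seen where no Xi is involved. An allelic ratio at least as high as that of Eif2s1 was found in 20.9% of autosomal genes in adult, and one at least as high as that of Utp14a in 6.61%.

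Eif2s2 (Entrez 67204), the gene of the beta subunit, lies on the minus strand at chr2:154871410-154892906. It had only 8 BL6 and 12 CAST reads in adult and 6 BL6 and 4 CAST reads in aged. The allelic ratio of 0.400 in adult had an interval from 0.191 to 0.639, and the aged library was below the minimum of 20 reads for an allelic ratio. Its levels of 2.05 and 1.72 RPM are given with no fold. Of all reads of the 3 eIF2 genes, Eif2s3x held 72.5% (68.1 to 76.7) in adult and 68.9% (63.3 to 74.0) in aged. These shares depend on how many SNPs and how much transcript each gene offers, so they compare the ages and not the subunits. Counting BL6 reads alone, the share of Eif2s3x was 75.7% and 73.8%, and counting CAST reads alone it was 66.4% and 61.0%. Over all reads, the intervals of the ages overlapped.

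The X-linked genes whose allelic ratio was most like that of each escapee over both libraries were found among 333 candidates, by the summed absolute difference in allelic ratio. For Eif2s3x it was Kdm5c, a histone demethylase gene also known as an escapee, with an allelic ratio of 0.672 and 0.646. For both Ddx3x and Pbdc1 it was Rps4x, a gene of a small-subunit ribosomal protein, with 0.590 and 0.595. Rps4x belongs to a family with many processed copies, and its reads are uncertain for that reason. The second nearest were Ndufb11 for Ddx3x (0.613 and 0.465), Cybb for Eif2s3x (0.770 and 0.694) and Kdm5c for Pbdc1. Cybb and then Kdm5c were nearest to 9530027J09Rik. For Utp14a they were Jpx, a noncoding gene of the X inactivation centre, with 0.768 and 0.863, and 4930578C19Rik with 0.728 and 0.880. Likeness here is over 2 libraries only, and genes chosen as nearest at both ages share the direction of the difference by that choice.

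Within 500 kb of an escapee, 23 X-linked genes outside the set had 20 or more reads in both libraries, and 2 of them in adult and 5 in aged had an allelic ratio of 0.9 or lower, against 9.46% and 12.2% of all informative X-linked genes. Pooled over the neighbours, CAST reads made up 3.54% in adult and 3.78% in aged. The 7 neighbours of Utp14a all had an allelic ratio above 0.9 at both ages, from 0.943 to 0.987 in adult and from 0.931 to 0.997 in aged. They were Ocrl, Zdhhc9, Bcorl1, Elf4, Aifm1, Zfp280c and Slc25a14, and their pooled CAST share was 3.35% and 2.06%. Eif2s3x lay among 6 neighbours, of which 1, Maged1, with 25 and 22 reads, was at or below 0.9 (0.840 and 0.773). Zfx and Klhl15, on either side of Eif2s3x, stood above 0.9, and the pooled CAST share of its neighbours was 1.55% and 2.48%.

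Around Ddx3x, none of 8 neighbours was at or below 0.9 in adult and 3 were in aged. Gm14634 had 17 CAST of 334 reads in adult and 21 of 95 in aged, or allelic ratios of 0.949 (0.920 to 0.970) and 0.779 (0.682 to 0.858), with separate intervals. Gm34836 had 2 of 34 and 16 of 34, or allelic ratios of 0.941 (0.803 to 0.993) and 0.529 (0.351 to 0.702), also separate. Gm34836, Gpr34 and Gpr82 lie within the span of Cask, so their reads may stand in both genes. Nyx had 1 of 21 and 7 of 26, with intervals that overlapped. Gpr34, which the paper places in an escape cluster with Ddx3x, went the other way in value. It had 4 CAST of 59 reads in adult and 0 of 44 in aged, with intervals that overlapped. Gpr82 (0 of 23 and 1 of 34) and 5730405O15Rik (1 of 131 and 1 of 38) stood above 0.9 at both ages. The large genes Usp9x and Cask near Ddx3x stood above 0.9 at both ages, and Usp9x, with 60 CAST of 1525 reads in adult, had an allelic ratio of 0.961. The intervals of 2 of 8 neighbours were thus separate between the ages while that of Ddx3x itself was not. An aged interval wholly below the adult one was found in 5.62% of 338 X-linked genes. Close to Pbdc1, 5530601H04Rik, which ends 9631 bp before it, had 87 CAST of 271 reads in adult and 20 of 89 in aged. Its allelic ratio was 0.679 (0.620 to 0.734) and 0.775 (0.674 to 0.857), so in value the CAST share was lower in aged where that of Pbdc1 was higher, and the difference of these differences was not tested. Its scaled total in aged was 0.551 times that in adult, against 1.18 for Pbdc1.

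**Figure D4:**
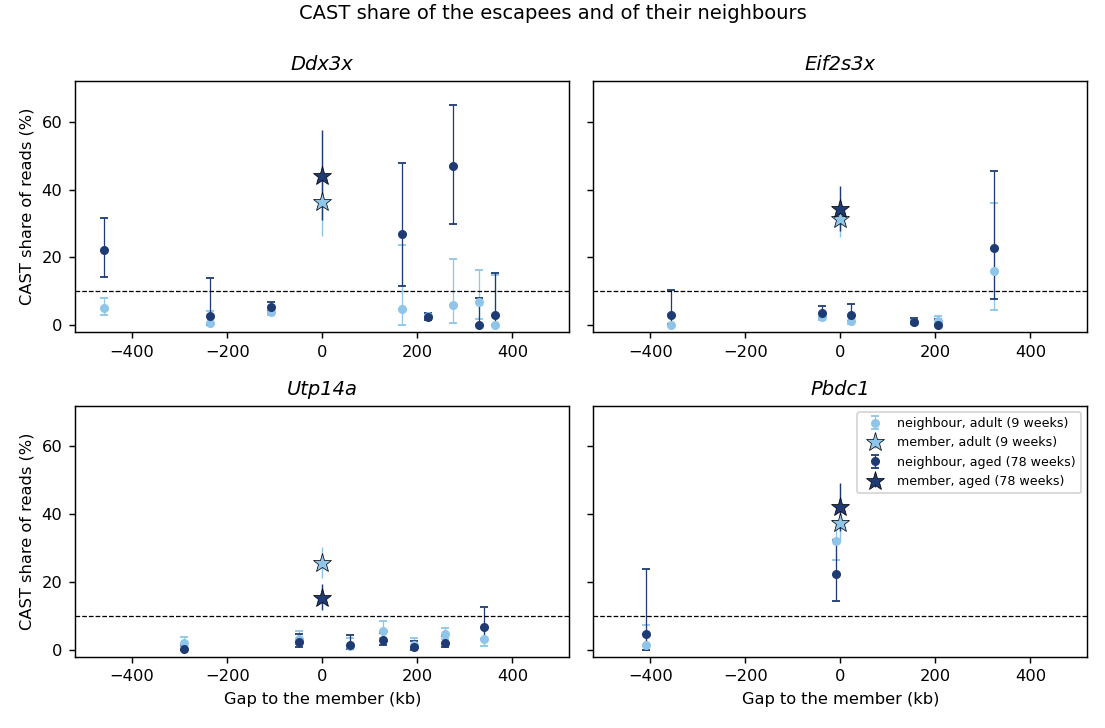
CAST share of reads (percent) of Ddx3x, Eif2s3x, Utp14a and Pbdc1 (stars, at 0) and of X-linked neighbours within 500 kb (dots), by the gap between gene ends in kb, in the adult (light) and aged (dark) library, with 95% intervals for counting error. The dashed line is a CAST share of 10%. The neighbours of Utp14a lie below it at both ages, 3 of 8 neighbours of Ddx3x lie above it in aged, and 1 neighbour stands beside Pbdc1.

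The other genes of the pathway were described by their total reads. Of the 9 genes of the eIF2 list with 40 or more reads in all, Eif2s1 and Eif2s3x among them, 2 (22.2%) were 1.5-fold or more higher in aged and 0 lower, against 27.1% and 15.1% of all genes, with a median ratio of 1.28 against 1.13. The higher ones were Eif5, whose product stimulates GTP hydrolysis by eIF2 (1.68), and Eif1a, of start codon selection (1.81). The rest lay between Cdc123, an assembly factor of eIF2 (0.935), and Eif2d, which can deliver tRNA in place of eIF2 (1.44), with Eif1 at 0.994, Eif2a at 1.27 and Eif1ax at 1.28. Eif1a and Eif1ax are near-identical copies that may share reads. Of the 5 eIF2B genes, which encode the exchange factor that recharges eIF2 with GTP, 2 were higher against 27.1% of all genes, Eif2b3 at 2.40 and Eif2b5 at 1.78. Eif2b1 stood at 1.04, Eif2b2 at 1.33 and Eif2b4 at 1.39. The list of kinases and phosphatase subunits that act on the alpha subunit also held the kinase inhibitors Dnajc3 and Impact. Of its 10 genes 3 were higher and 0 lower, against 27.1% and 15.1% of all genes, with a median of 1.14. Those higher were Ppp1r15b, a regulatory subunit that directs dephosphorylation of eIF2 (2.77), the heme-regulated kinase Eif2ak1 (1.54) and the catalytic subunit Ppp1cc (1.52). The kinase genes Eif2ak2 (0.678), Eif2ak3 (1.09) and Eif2ak4 (0.862) stayed inside 1.5-fold, as did Ppp1r15a (1.42), Ppp1cb (1.084), Dnajc3 (1.19) and Impact (0.999).

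Among targets of the integrated stress response, 4 of 9 were higher and 1 lower, against 27.1% and 15.1% of all genes, with a median of 1.40. Trib3, a pseudokinase induced in that response, had 15 reads in adult (7 BL6, 8 CAST) and 94 in aged (20 BL6, 74 CAST). Its ratio was 10.5 (6.07 to 19.5), and most of the added reads were CAST. Phgdh, of serine synthesis, stood at 3.27, Ddit3, the transcription factor CHOP, at 2.81 and Slc3a2, a subunit of amino acid transporters, at 2.12. Ddit4, an inhibitor of mTOR signalling, was lower, with 48 and 5 reads and a ratio of 0.175 (0.0543 to 0.437). Psat1 (0.839), Asns (1.079), Mthfd2 (1.19) and Sesn2 (1.40) lay within 1.5-fold, so the targets did not move as 1 group. Atf4, the central factor of the response, had 6 and 11 reads, too few for a fold.

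Of the 13 eIF3 genes 4, or 30.8%, were higher (Eif3i 2.11, Eif3j1 2.03, Eif3k 1.61 and Eif3b 1.54), and 0 lower, a share near the 27.1% of all genes. Of 18 eIF4 genes 5, or 27.8%, were higher, also near that share, led by the scaffold gene Eif4g1 (2.18) and the helicase gene Eif4a1 (1.98), with Eif4ebp2 at 1.77 and Eif4b at 1.69. The 2 lower ones were Eif4ebp1 (0.567) and Paip2b (0.623). Of 8 elongation factor genes 3, or 37.5%, were higher, Eef1a1 (2.86), Eef1g (1.88) and Eef1d (1.66). Eef1a1 has many processed copies, and its ratio is uncertain for that reason. Beside Ddx3x, the DEAD-box helicase list had 11 of 31 genes higher and 1 lower, against 27.1% and 15.1% of all genes. When set against the median gene, 5 were higher and 1 lower, where 19.3% and 20.6% of all genes were. The list held Ddx41 at 5.10, Ddx39 at 2.15, Ddx54 at 2.12 and Ddx20 at 1.86, and Ddx60, an interferon-induced helicase, at 0.360. Beside Utp14a, the small subunit processome list had 16 of 35 genes higher and 0 lower, against 27.1% and 15.1% of all genes, with a median of 1.45, and Utp14a was among the 16. Set against the median gene, 9 were higher and 1 lower, where 19.3% and 20.6% of all genes were. Utp14a, at 1.42 on that scale, was not among the 9. Rrp7a, from 9 to 32 reads, stood at 5.97, Bysl at 2.30, Heatr1 at 2.19 and Imp3 at 2.11.

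Over the 9 lists, 138 of 165 genes had enough reads, 50 were 1.5-fold or more higher and 4 lower, against 27.1% and 15.1% of all genes, with a median of 1.38. Against the median gene in place of the library total, 29 were higher and 6 lower, where 19.3% and 20.6% of all genes were. The summed fibroblast, endothelial, pericyte, smooth muscle and macrophage markers were higher in aged as well (1.42 to 1.81 times, smooth muscle 3.00 without Myocd), and their part in the list medians was not tested. Among close copies of the escapees, Utp14b had 51 reads in adult and 24 in aged, a ratio of 0.790 (0.465 to 1.31), while Ddx3y, Eif2s3y and D1Pas1 were not listed. Reads that the authors' counting could split between Utp14a and Utp14b would leave the ratio of Utp14a uncertain, which was not tested.

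**Figure D5:**
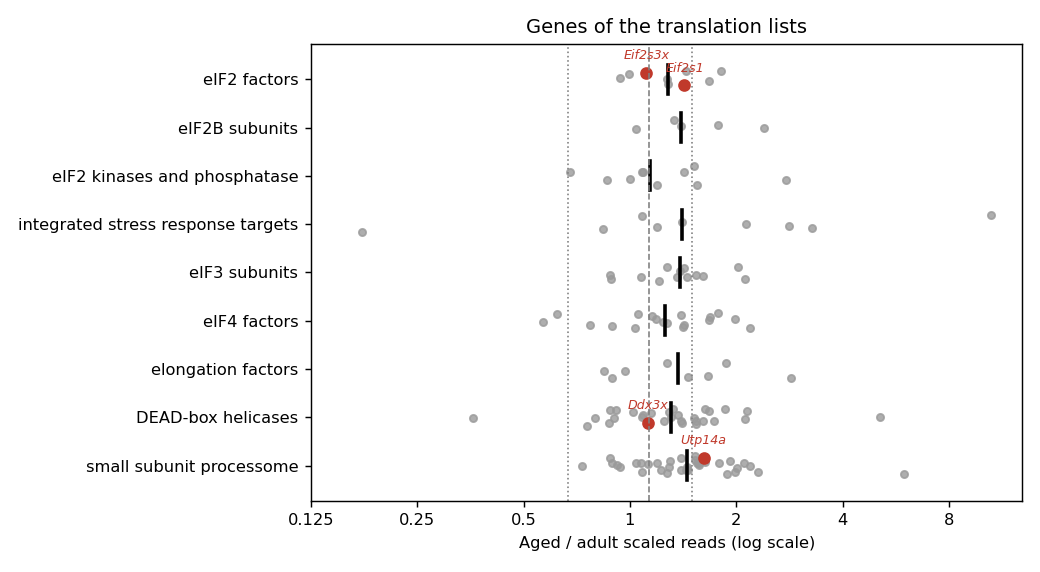
Aged to adult ratio of total scaled reads, on a log axis, for each gene of the 9 lists (dots), with the genes of the set in red and the list medians as black bars. The dashed line is the median of all genes (1.13) and the dotted lines mark 1.5-fold. Utp14a lies above 1.5-fold with 15 other genes of the processome list, while Ddx3x and Eif2s3x lie near the median of all genes.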

How the data were processed

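Nuclei of 1 heart per age were sequenced with a droplet-based 3′ kit. Per the labels and the study's methods, the authors aligned reads to mm10 with Cell Ranger (7.1.0 in the submitters' processing notes, which also name Seurat 5.1.0), split alignments by nucleus with sinto, pooled nuclei with a BL6 Xa and counted SNP-overlapping reads per RefSeq gene with Allelome.PRO2. The deposited counts are BL6, CAST and total reads per gene. The deposited allelic ratio is a fraction rounded to 2 decimals, and the deposited score of Allelome.PRO2 was not used. The aged sample is placed at 78 weeks by its labels, whereas the name of its deposited file gives 87 weeks. The methods describe removal of doublets with DoubletFinder before clustering, and whether it applied to these pools is not stated.

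Allelic ratios, RPM and intervals were computed from the counts (Python 3.11.15, pandas 2.3.3, numpy 2.4.6, scipy 1.17.1). Allelic ratio intervals are Clopper-Pearson, allelic ratio differences Newcombe, RPM exact Poisson and aged to adult ratios exact conditional binomial. An allelic ratio needed 20 reads per library and a fold 40 reads over both. Thresholds were an allelic ratio of 0.9, 1.5-fold and 0.1 in allelic ratio. The 7 X-linked genes that the study excluded for their allelic ratio in males, Xist and Tsix were left out of X-linked summaries. Interval code was tested on simulated data. The named genes were all 7 genes of the set, their close copies, the eIF2, eIF2B, kinase and phosphatase lists, up to 4 genes per direction with the largest fold in each other list, neighbours within 500 kb and the 2 genes nearest in allelic ratio. Genes, lists and thresholds were chosen with earlier results of these data known. Protein sequences were not used here.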

Additional observations from a re-analysis of the deposited data

How the results depend on the processing

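Of 167 alternative values, 151 moved by less than the counting interval (counts by at most 1.5 times) and 16 by more. All 40 alternative allelic ratio values, 20 allelic ratio differences and 63 aged to adult ratios stayed within it, under the deposited allelic ratio, a subtracted background CAST share, odds divided by the autosomal odds, other library scalings, adult reads thinned to the aged total, and 9530027J09Rik reads removed from Utp14a (chosen after the data were seen). Even so, 9 of these values, none of them beyond counting error, changed side of 0 or 1: the allelic ratio difference of 9530027J09Rik with thinned reads (-0.0108), 1 ratio without the 10 genes of most reads, and 7 ratios with a median of ratios over genes, among them the totals of Ddx3x (0.992), Eif2s3x (0.9804) and 9530027J09Rik (0.907). The deposited allelic ratio is the same counts rounded to 2 decimals, so its values could hardly move and say little about stability. Eif2s2 is among the genes counted here, though its reads were too few for a fold or an aged allelic ratio. With a minimum of 100 reads, 3 X-linked genes of the set in adult and 3 in aged counted at or below 0.9, since fewer were left. The share of Eif2s3x against Eif2s2 alone was 94.1% in adult and 95.5% in aged, since Eif2s1 was then left out. Neighbours at or below 0.9 numbered 1 in adult and 2 in aged within 200 kb, 8 and 11 within 2 Mb, and 1 and 2 with a minimum of 50 reads. The pooled CAST share in aged was 33.1% as a mean of genes, 37.9% without Utp14a and 24.9% without Pbdc1. At 2-fold, 18 list genes were higher and 2 lower. The share of all genes past 2-fold was not determined, so these counts have no background beside them. With a median of ratios over genes, 29 were higher and 6 lower at 1.5-fold, where 19.3% and 20.6% of all genes were. No paired analysis was possible because each age had 1 library. For the same reason no library could be left out, and age cannot be told apart from animal, library or sequencing run. Depth limits Ddx3x, 9530027J09Rik, Eif2s1 and Eif2s2 most.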
